A study of Mus musculus with 6 samples.

Results

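The genes described here encode the mitochondrial ribosomal proteins, chosen as every gene symbol of the platform annotation that starts with Mrpl or Mrps and a digit, pseudogenes left out. They numbered 76 of 19505 genes, 48 named for the large subunit and 28 named for the small subunit, each measured by 1 transcript cluster. By structure, Mrps18a and Mrps30 sit in the large subunit despite their symbols, and Mrps36 is now known as a part of the 2-oxoglutarate dehydrogenase complex and not of the ribosome. The RefSeq gene table lists 78 such symbols, and the other 2, Mrpl53 and Mrps6, were not analysed here.

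Mitochondria have their own ribosome, which makes the few respiratory chain and ATP synthase proteins that mitochondrial DNA encodes. Its RNA comes from mitochondrial DNA, but all of its proteins are encoded in the nucleus, made in the cytosol and imported. Some are counterparts of bacterial ribosomal proteins and others exist only in mitochondria. The transcription factors NRF1, GABPA (of the ETS family) and YY1 are known to act at promoters of nuclear genes for mitochondrial proteins.

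Expression was measured on single-colour Affymetrix mouse arrays in B16F10 cells, an established mouse melanoma line, kept in RPMI1640 and treated for 48 h. The groups were medium without compound (control, 0 µM), 2.5 µM and 40 µM of a compound labelled di-sq (SQ-diEG in the title), with 2 arrays each. These groups follow the titles and treatment fields, while the description fields of most samples name medium or another treatment. The labels do not state separate cultures for the arrays of a group. The p-values thus describe only how much these arrays spread, which may be technical. Values are RMA log2 signals, and a difference of 1 on that scale is a doubling of that signal. Of the pigment cell markers 7 of 7 lay above background. Their summed level per array was 113.5 to 114.2 at 40 µM, 114.5 to 114.8 at 2.5 µM and 114.2 to 114.3 in control. Within that sum, 4 markers were higher and 3 lower for 40 µM minus control. Mitf moved most, with 15.10 and 15.51 at 40 µM, against 16.03 and 15.95 in control (adjusted p = 0.349, limma). Fibroblast, keratinocyte, leukocyte and endothelial markers had 0 genes above background.

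Background was set by the negative control features, at their 95th percentile, which was 9.94 on average over the 6 arrays. By their mean over the arrays 22 of the 76 members lay above it and 54 at or below it, so most differences below are between weak signals. At each array's own percentile, 25 and 15 members were above background at 2.5 µM and 32 and 19 at 40 µM (replicates 1 and 2). In control 16 and 18 were. That percentile was lowest on replicate 1 of 2.5 µM (9.83) and of 40 µM (9.80), against 9.94 to 10.06 on the other arrays. Over all genes, 4362 and 3940 were above it at 2.5 µM and 4566 and 3939 at 40 µM, against 3983 and 4013 in control.

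Both arrays labelled replicate 1 of the treated groups stood apart before any gene was considered. Their hybridisation controls averaged 10.43 (2.5 µM) and 10.30 (40 µM), against 10.82 to 11.15 on the other 4 arrays, and their poly-A controls 5.65 and 5.63, against 6.35 to 7.42. The interquartile range over all genes was wider on them, at 5.20 and 5.43, against 4.90 to 4.94. In the other direction, 40 µM replicate 2 had the highest means of both control sets. Its hybridisation controls averaged 11.15, against 10.86 and 10.90 in control, and its poly-A controls 7.42, against 6.35 and 6.39. The 2 arrays with the lowest hybridisation controls are called the low arrays below. What part this split has in the members' values was not tested.

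The upstream bases of 4 members are shown because the results return to them. Mrpl41 and Mrps26 had the smallest p-values at 40 µM, Mrpl22 was another member with an unadjusted p below 0.05 there, and Mrpl17 had the lowest difference of all members. Each line gives the 250 bases before the annotated start, 5′ to 3′ on the gene's strand, from RefSeq on GRCm38.p6. The positions are chr2:24975099-24975348 (minus strand) for Mrpl41, chr2:130563507-130563756 (plus strand) for Mrps26, chr11:58171414-58171663 (plus strand) for Mrpl22 and chr7:105811088-105811337 (minus strand) for Mrpl17. Capitals mark exact matches, on either strand, to the letters searched: GCGCATGCG for NRF1, CCGGAAG for ETS factors and AAGATGGC for YY1.
Mrpl41: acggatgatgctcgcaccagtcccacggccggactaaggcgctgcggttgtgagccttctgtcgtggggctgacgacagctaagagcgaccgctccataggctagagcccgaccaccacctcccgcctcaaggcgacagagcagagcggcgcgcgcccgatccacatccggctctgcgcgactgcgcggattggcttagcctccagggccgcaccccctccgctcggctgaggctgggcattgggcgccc
Mrps26: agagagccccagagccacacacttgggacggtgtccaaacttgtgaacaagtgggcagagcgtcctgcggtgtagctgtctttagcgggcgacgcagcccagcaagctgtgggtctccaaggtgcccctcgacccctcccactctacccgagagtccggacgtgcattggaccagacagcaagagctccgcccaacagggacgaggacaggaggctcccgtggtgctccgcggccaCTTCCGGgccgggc
Mrpl22: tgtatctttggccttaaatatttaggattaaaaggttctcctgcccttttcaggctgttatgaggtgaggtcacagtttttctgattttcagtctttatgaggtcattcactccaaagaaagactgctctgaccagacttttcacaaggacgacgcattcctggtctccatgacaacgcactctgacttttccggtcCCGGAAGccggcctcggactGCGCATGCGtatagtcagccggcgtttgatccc
Mrpl17: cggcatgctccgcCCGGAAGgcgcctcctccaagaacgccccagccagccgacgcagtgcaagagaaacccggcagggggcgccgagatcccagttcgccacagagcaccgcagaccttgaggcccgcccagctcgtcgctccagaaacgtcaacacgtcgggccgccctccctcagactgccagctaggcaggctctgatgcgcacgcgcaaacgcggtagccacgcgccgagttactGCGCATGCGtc

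Array by array, the members were higher on both low arrays and spread around the control level on the other treated arrays. The 48 large subunit genes had a median log2 difference from the control mean of 0.54 on 2.5 µM replicate 1 and -0.05 on 2.5 µM replicate 2. At 40 µM their medians were 0.98 on replicate 1 and -0.01 on replicate 2. The 28 small subunit genes had medians of 0.42 and -0.03 at 2.5 µM and of 0.74 and 0.07 at 40 µM, in the same order of replicates. Both subunits therefore showed the same split, and the large subunit's medians lay further from control on the low arrays. All 19505 genes had medians between -0.04 and 0.01 on the 4 treated arrays, and the 4147 genes above background had medians between -0.01 and 0.08. In these bulk samples, fewer cells of a type and less RNA per cell cannot be told apart.

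**Figure D1:**
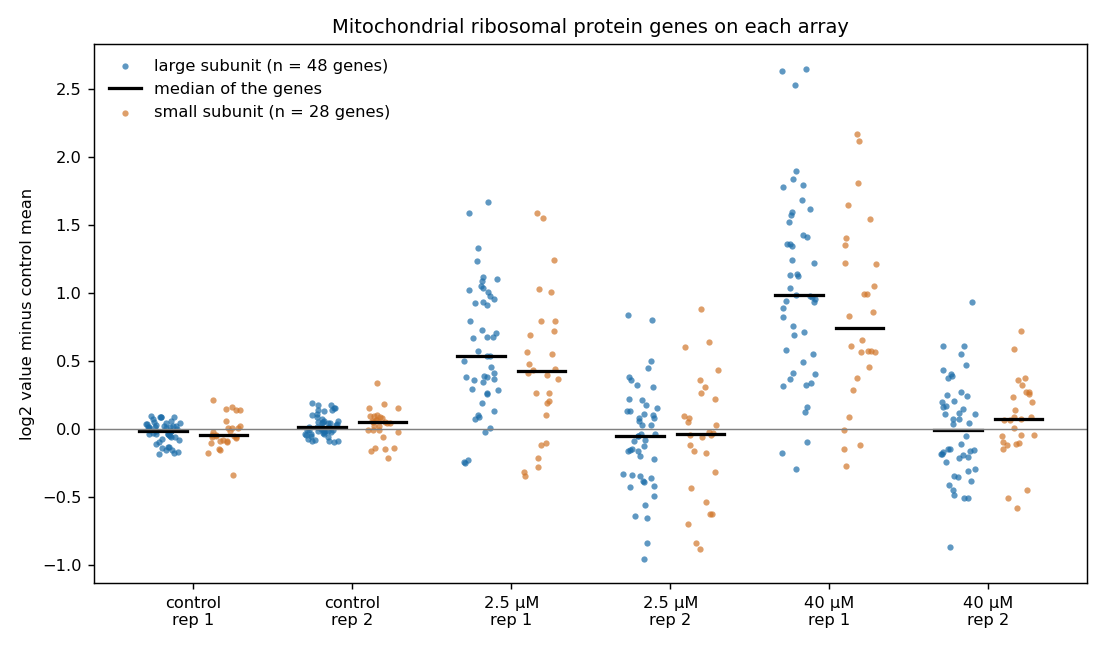
Each point is 1 mitochondrial ribosomal protein gene on 1 array, as its log2 value minus its control mean, with large subunit genes left and small subunit genes right on each array and a bar at their median. The points lie mostly above 0 on replicate 1 of 2.5 µM and of 40 µM and on both sides of 0 on replicate 2 of each.

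Counted by gene, 66 of 76 members were above their control mean on 2.5 µM replicate 1 and 33 were on replicate 2. At 40 µM the counts were 69 on replicate 1 and 41 on replicate 2. Over all 19505 genes they were 9755 and 9887 at 2.5 µM and 9076 and 9525 at 40 µM. By subunit, the large subunit gave 44 and 21 of 48 at 2.5 µM and 45 and 24 of 48 at 40 µM, and the small subunit 22 and 12 of 28 and then 24 and 17 of 28. Replicate 1 exceeded replicate 2 for 71 members at 2.5 µM and 72 at 40 µM, but for 32 in control. Over all 19505 genes it did so for 9662, 9422 and 9695, in that order. The median gap between the arrays of a group was 0.54 at 2.5 µM and 0.86 at 40 µM for the members, against 0.12 in control, where all genes had 0.27 and 0.37, against 0.12. The spread within each dose was thus wider for these genes than for the array as a whole, while in control it was close to it, a description that was not tested.

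For 40 µM against control, which asks what the higher dose did over 48 h, no member passed limma's test after Benjamini-Hochberg adjustment, and no gene on the array did (0% of 19505). The median log2 difference was 0.46 for the large subunit, with 44 of 48 genes higher, and 0.43 for the small subunit, with 25 of 28 higher, beside -0.01 over all genes. Single estimates ranged from -0.40 (Mrpl17) to 1.46 (Mrpl47), the second under background on every array, so that its size cannot be read as a fold. The smallest adjusted p of a member was 0.334 (limma). At an unadjusted p below 0.05, 7 members were higher and 0 lower, which is 9.21% of the members higher, where 5.18% of all genes were higher and 6.86% lower. The sign of the large subunit's median rests on 1 array: without 40 µM replicate 1 it was -0.01 for the large and 0.07 for the small subunit. Without 40 µM replicate 2 it was 0.98 and 0.74, and 23 members passed the adjusted limma test as higher, beside 11.5% of all genes called in either direction, with the lone array taken to vary like the other groups.

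**Figure D2:**
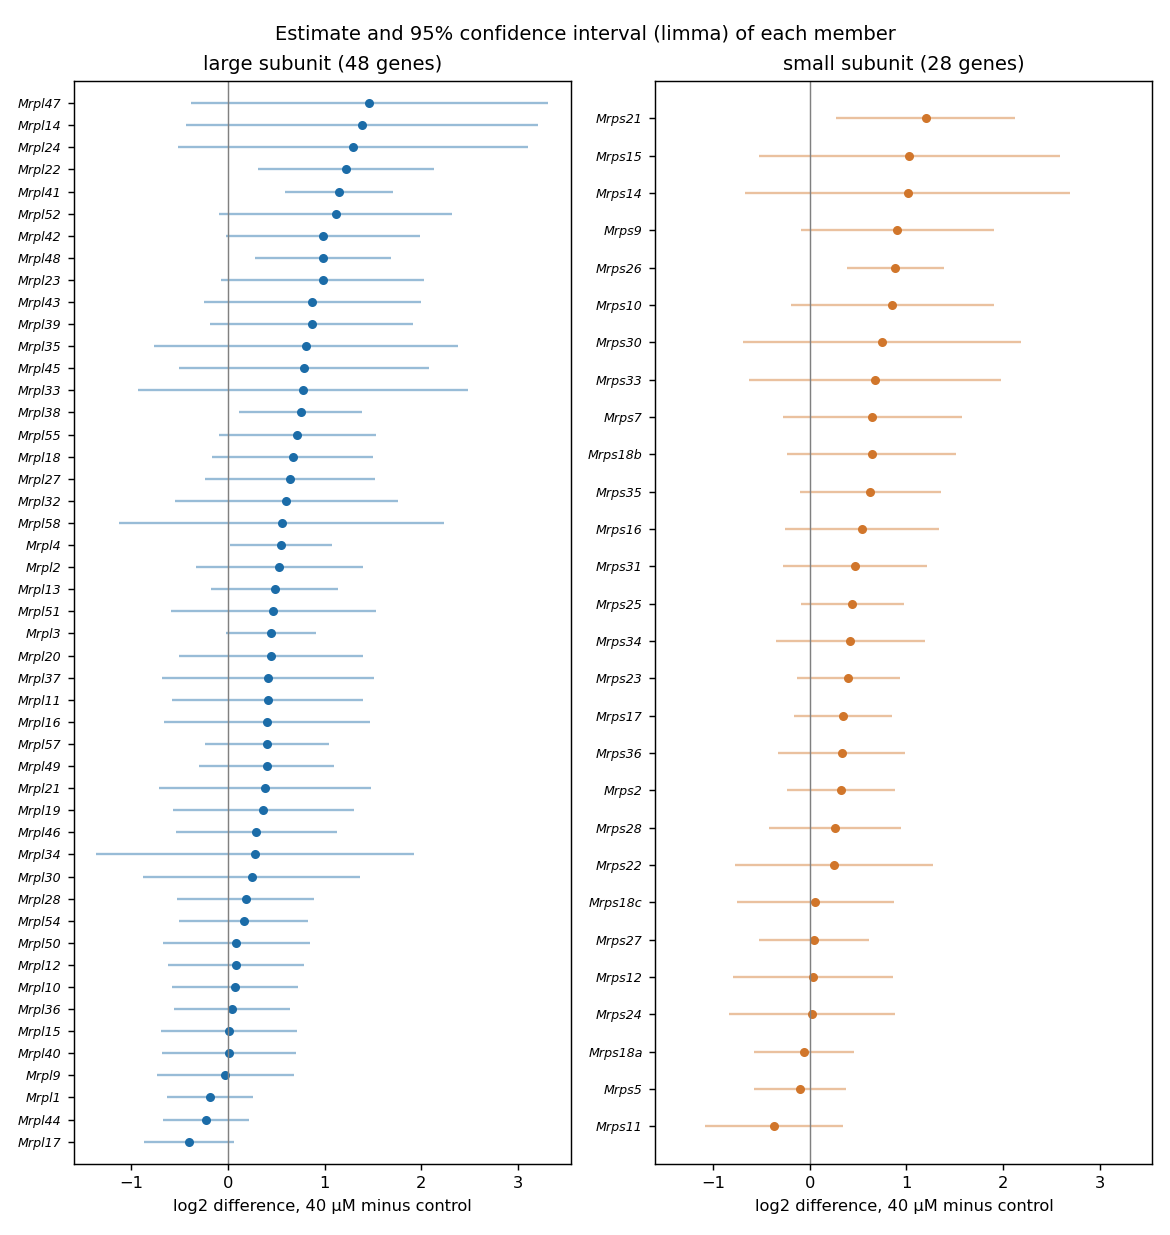
Points are limma estimates of the log2 difference, 40 µM minus control, for the 48 large (left) and 28 small (right) subunit genes, with 95% confidence intervals as lines. Estimates run from -0.40 to 1.46, most of them above 0, and most intervals cross 0.

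The 7 members past the unadjusted threshold came from both subunits and from both origins. Mrpl41, a protein found only in mitochondrial ribosomes whose human counterpart binds BCL2, had 7.03 and 6.60 at 40 µM, against 5.63 and 5.71 in control. Its difference was 1.15 ± 0.24 (SE, adjusted p = 0.334, limma, n = 2 arrays each). Mrps26, a mitochondria-specific protein of the small subunit, had 9.52 and 9.20 at 40 µM, against 8.48 and 8.46 in control. Its difference was 0.89 ± 0.21 (SE, adjusted p = 0.34, limma). Neither gene's groups overlapped, and both arrays of the dose were well over both control arrays. Both genes, however, stayed under background on all 6 arrays, so the differences are between background-level signals and their size is not read as a fold of RNA.

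Mrpl48, a protein of the large subunit's central protuberance, was above background on all 6 arrays. It had 11.82 and 11.08 at 40 µM, against 10.46 and 10.49 in control, a fold of 1.97 with an adjusted p of 0.349 (limma). Its groups did not overlap, and 40 µM replicate 2 lay 0.61 over the control mean. Mrpl38, another protein of the central protuberance, had 11.10 and 10.53 at 40 µM, against 10.08 and 10.04 in control, a fold of 1.69 with an adjusted p of 0.373 (limma).

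Mrps21, the counterpart of bacterial S21, had 8.20 and 6.98 at 40 µM, against 6.37 and 6.41 in control. Mrpl22 and Mrpl4, counterparts of bacterial proteins that line the exit tunnel for the new chain, were the other members in this group. Mrpl22 had 7.80 and 6.58 at 40 µM, against 6.03 and 5.91 in control, and Mrpl4 had 7.75 and 7.43, against 6.98 and 7.09. All 3 were higher on both arrays of the dose, and in Mrps21 and Mrpl22 the low array was more than 1 log2 unit over the other. Mrpl22 and Mrpl4 had log2 differences of 1.22 ± 0.39 and 0.55 ± 0.22 (SE, limma), and the adjusted p was 0.359 for Mrps21, 0.354 for Mrpl22 and 0.408 for Mrpl4. All 3 were under background on every array, with the same limit.

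Groups of 2 and 2 arrays did not overlap for 29 members as higher and 4 as lower at 40 µM, where 22.2% of all genes were higher in this way and 26.3% lower. The 4 lower members were Mrpl17, Mrpl44, Mrpl1 and Mrps11. Mrpl17, a bacterial L17 counterpart by the tunnel exit, had 10.64 and 10.43 at 40 µM, against 10.88 and 10.99 in control, a fold of 0.756 (adjusted p = 0.45, limma). Mrpl44, which has an RNase III-like fold, had 11.32 and 11.06, against 11.39 and 11.45, a fold of 0.855 (adjusted p = 0.624, limma). Both lay above background on every array, and their low array was the higher of the pair at 40 µM, as in most members. Mrpl1, the protein of the mobile L1 stalk, had 9.01 and 9.01 at 40 µM, against 9.20 and 9.18 in control. Mrps11, the small subunit's S11 counterpart, lay 0.15 and 0.58 below its control mean at 40 µM, and is named because its values were seen. The groups of these last genes were separated by less than 0.2, under background throughout.

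For 2.5 µM against control, which asks what the lower dose did, 0 members and 0% of genes passed the adjusted limma test, and the smallest adjusted p of a member was 0.479. The median log2 difference was 0.24 for the large subunit, with 36 of 48 genes higher, and 0.18 for the small subunit, with 19 of 28 higher, beside 0.01 over all genes. At an unadjusted p below 0.05, 5 members were higher and 0 lower, or 6.58% of members, where 4.24% of all genes were higher and 5.38% lower. Arrays did not overlap for 26 members as higher and 8 as lower, where the shares over all genes were 27.1% and 25.9%. Without 2.5 µM replicate 1 the medians were -0.05 and -0.03, and without replicate 2 they were 0.54 and 0.42.

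The 5 members were Mrpl4, Mrpl41, Mrps26, Mrps21 and Mrpl48. Mrpl4 had 8.06 and 7.88 at 2.5 µM, against 6.98 and 7.09 in control, a difference of 0.93 ± 0.22 (SE, adjusted p = 0.479, limma). Mrpl41 had 6.62 and 6.47 at 2.5 µM, against 5.63 and 5.71 in control, and Mrps26 had 9.27 and 9.08, against 8.48 and 8.46. In these 3 genes the arrays of the dose differed by less than 0.2, so the low array was close to the other. Mrps21 had 7.63 and 7.27 at 2.5 µM, against 6.37 and 6.41 in control, and Mrpl48 had 11.50 and 10.97, against 10.46 and 10.49.

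A further 4 genes with small subunit symbols lay below both controls on both 2.5 µM arrays but not on both 40 µM arrays. They were Mrps5, Mrps12, Mrps16 and Mrps18a, and the control samples are shared by both comparisons. Mrps5, which lies near the entry site of the messenger, had 10.72 and 10.61 at 2.5 µM, against 10.99 and 11.09 in control. Mrps18a, 1 of 3 mammalian relatives of bacterial S18, had 9.58 and 9.15, against 9.81 and 9.90. At 40 µM Mrps5 had 10.77 and 11.11 and Mrps18a 9.85 and 9.75, with no adjusted p under the threshold in either comparison (limma).

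Between the doses, 40 µM against 2.5 µM, 0 members and 0% of genes passed the adjusted limma test (smallest adjusted p of a member 0.854). The median log2 difference was 0.25 for the large subunit, with 37 of 48 genes higher, and 0.22 for the small subunit, with 25 of 28 higher. Between the low arrays alone the median over all members was 0.38 with 65 of 76 higher at 40 µM, and between the other arrays of the doses it was 0.03 with 41 of 76 higher. At an unadjusted p below 0.05, 2 members were higher and 0 lower, where 2.34% of all genes were higher and 3.28% lower.

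Those 2 genes were Mrpl23, at the tunnel exit in bacterial ribosomes, and Mrps16, one of the genes in which inherited variants cause mitochondrial disease in people. Mrpl23 had 9.06 and 8.20 at 40 µM, against 8.04 and 6.82 at 2.5 µM, beside 7.57 and 7.74 in control. Mrps16 had 7.16 and 6.25 at 40 µM, against 6.06 and 5.63 at 2.5 µM, beside 6.11 and 6.22 in control. The dose groups were apart in each gene. In Mrps16 both 2.5 µM arrays lay below both controls, while in Mrpl23 replicate 1 lay above both and replicate 2 below. Both genes were under background on every array. Their differences were 1.21 ± 0.44 and 0.86 ± 0.34 (SE, limma, adjusted p = 0.854 for both).

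**Figure D3:**
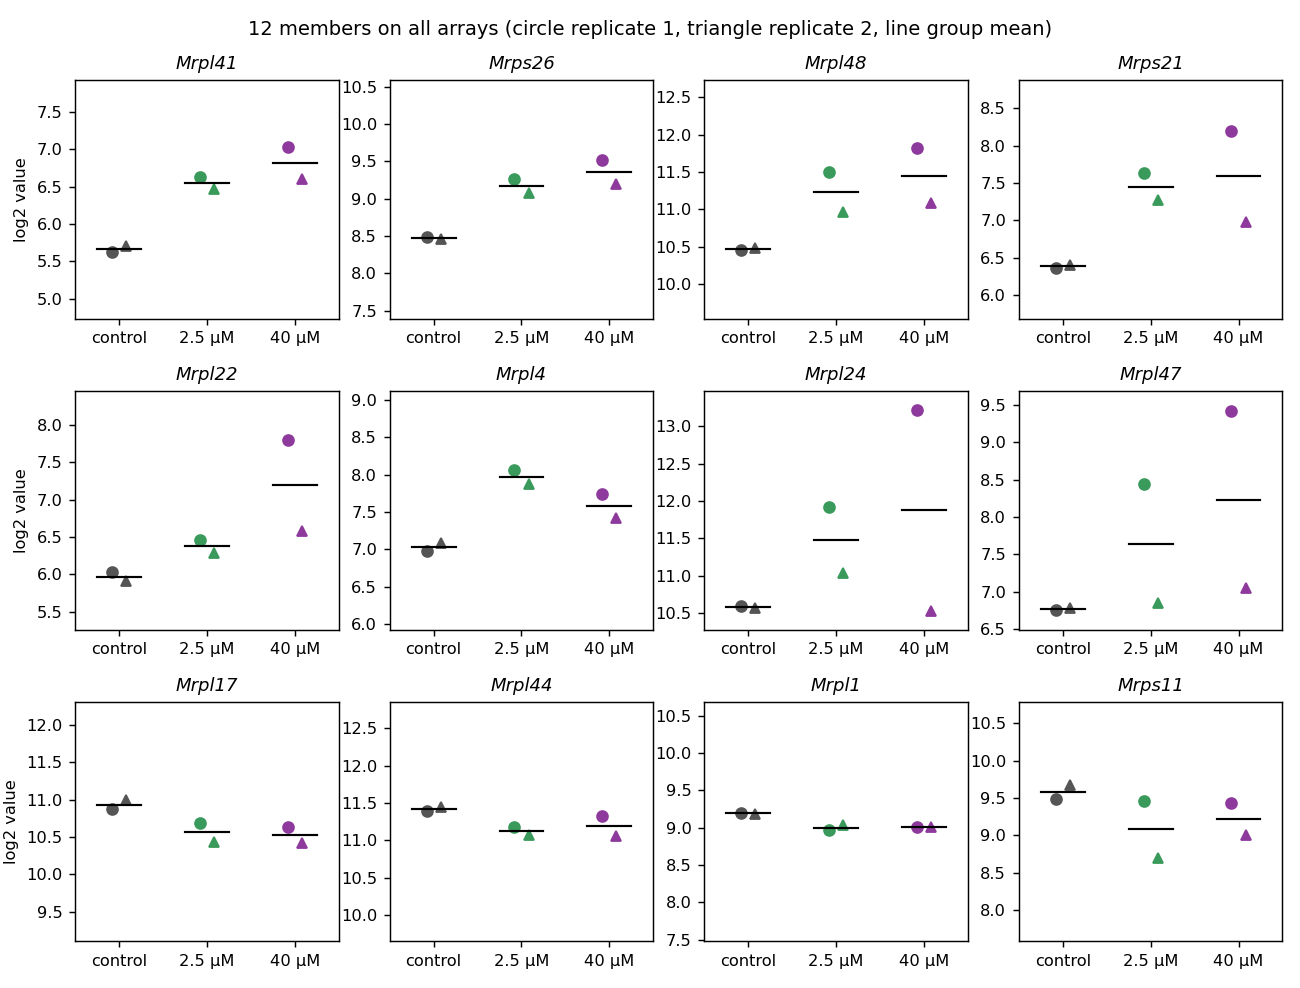
Log2 values of 12 members on all 6 arrays by dose (circles replicate 1, triangles replicate 2, lines group means), each panel on its own stretch of the log2 axis. Mrpl41, Mrps26 and Mrpl47 lie above both controls on all treated arrays, Mrpl47 furthest on the low arrays. Mrpl24 lies above both controls except on replicate 2 of the higher dose. Mrpl17, Mrpl44, Mrpl1 and Mrps11 lie below both controls.

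Across both doses, 16 members lay above both control arrays on all 4 treated arrays and 4 lay below, where the shares over all genes were 13.0% and 14.8%. Those above, in 21.1% of members, were Mrpl22, Mrpl41, Mrpl42, Mrpl47, Mrpl48, Mrps9, Mrps21 and Mrps26, and also Mrpl2, Mrpl3, Mrpl4, Mrpl13, Mrpl18, Mrpl39, Mrps23 and Mrps35. Those below, in 5.26% of members, were Mrpl1, Mrpl17, Mrpl44 and Mrps11. Of them, Mrpl2, Mrpl18, Mrpl39 and Mrps11 are named because their values were seen. Under quantile normalization 15 of the 16 and 4 of the 4 kept their place.

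The gap between the arrays at 40 µM differed widely among members. It was largest in Mrpl24, Mrpl47 and Mrpl34, counterparts of bacterial L24, L29 and L34. Mrpl24 had 13.22 and 10.53 at 40 µM, against 10.60 and 10.57 in control, so replicate 2 lay at the control level. Mrpl47 had 9.42 and 7.04, against 6.76 and 6.78, and Mrpl34 had 8.01 and 5.71, against 6.57 and 6.60. In Mrpl34 the 40 µM arrays lay on opposite sides of control. The gap was smallest in Mrpl54 (4.46 and 4.45 at 40 µM), Mrpl1 (9.01 and 9.01) and Mrps36 (8.32 and 8.41). Mrpl54 and Mrps36 had 4.12 and 4.47, and 7.69 and 8.37, in control, and in both the 40 µM arrays did not leave the range of control by more than 0.1.

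Members with known roles in translation varied in size and in the gap between arrays. In the stalk that recruits translation factors, Mrpl10 and Mrpl12 had log2 differences of 0.07 ± 0.28 and 0.08 ± 0.30, and Mrpl11 had 0.41 ± 0.42, for 40 µM minus control (SE, limma). Mrpl10 and Mrpl12 change sign when the arrays are scaled by quantiles or on expressed genes. Mrpl45, which holds the ribosome to the inner membrane, had 11.63 and 9.84 at 40 µM, against 9.81 and 10.09 in control. Mrpl58, a peptidyl-tRNA hydrolase built into the ribosome, had 11.11 and 8.99, against 9.51 and 9.47. Both were over control on the low array alone. Mrpl3, beside the peptidyl transferase centre, had 9.38 and 9.29 at 40 µM, against 8.91 and 8.85 in control, a difference of 0.45 ± 0.20 (SE, adjusted p = 0.423, limma) with little gap between its arrays.

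Genes in which inherited variants cause mitochondrial disease in people included Mrps2, Mrps7, Mrps16, Mrps22, Mrps28 and Mrps34 of the small subunit. Their log2 differences for 40 µM minus control were 0.32, 0.65, 0.54, 0.25, 0.26 and 0.42, in that order, none past the adjusted threshold, in a subunit where 25 of 28 genes were above 0. Without 40 µM replicate 1 they were 0.27, 0.07, 0.08, -0.10, -0.05 and 0.01. The relatives of bacterial S18 differed among themselves: Mrps18b had 0.64, Mrps18c 0.06 and Mrps18a -0.06. Mrps12, the decoding site protein, had 0.03, and Mrps18c and Mrps12 change sign under both other scalings. Mrps30, a large subunit protein also called PDCD9, had a difference of 0.75 ± 0.61 (SE, limma) and was over control on the low array alone.

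The 22 members above background by their mean were chosen with the low arrays included. By each array's own percentile, all 22 were above background on both low arrays, where that percentile was lowest. On 2.5 µM replicate 2 it was 15, on 40 µM replicate 2 it was 19, and in control 16 and 18. The filter thus favours genes high on the low arrays. Among those above it on all 6 arrays, Mrpl51 had 13.54 and 12.22 at 40 µM, against 12.38 and 12.45 in control, and Mrpl19 had 12.10 and 10.94, against 11.06 and 11.25. Mrpl13, known as a bacterial L13 counterpart, had 12.28 and 11.46, against 11.40 and 11.37, and Mrps23 had 11.19 and 10.68, against 10.54 and 10.53. In Mrpl51 and Mrpl19 replicate 2 was below both controls, and in Mrpl13 and Mrps23 it was above both by less than 0.2.

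By origin, the 45 members with bacterial counterparts in the naming scheme and the 30 specific to mitochondria had close medians. For 40 µM minus control these were 0.45 and 0.47, with 40 and 28 genes higher. On 40 µM replicate 1 they were 0.95 and 0.99, and on replicate 2 they were -0.05 and 0.08. Counted by structure instead of by symbol, the medians for 40 µM minus control were 0.46 over 50 large and 0.44 over 25 small subunit genes.

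Most other gene groups of the mitochondrion and the ribosome split between the arrays in the same way, to different extents. Cytosolic ribosomal proteins, 57 genes, had medians of 0.54 and -0.32 at 2.5 µM and of 0.78 and -0.13 at 40 µM. The 84 nuclear genes of the respiratory chain and ATP synthase, whose mitochondrially encoded partners this ribosome makes, had 0.67 and -0.16, then 1.17 and -0.02. The 15 genes of mitochondrial DNA expression had 0.47 and -0.03, then 0.80 and -0.06. Smaller shifts on the low arrays were found in 24 mitoribosome assembly factors (0.19 and 0.09, then 0.51 and 0.06), 15 translation factors (0.17 and 0.13, then 0.25 and 0.04) and 18 mitochondrial tRNA synthetases (0.19 and 0.06, then 0.24 and -0.01). The members' medians on the low arrays were thus between those of the respiratory chain and of the synthetases, and these differences between lists were not tested.

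**Figure D4:**
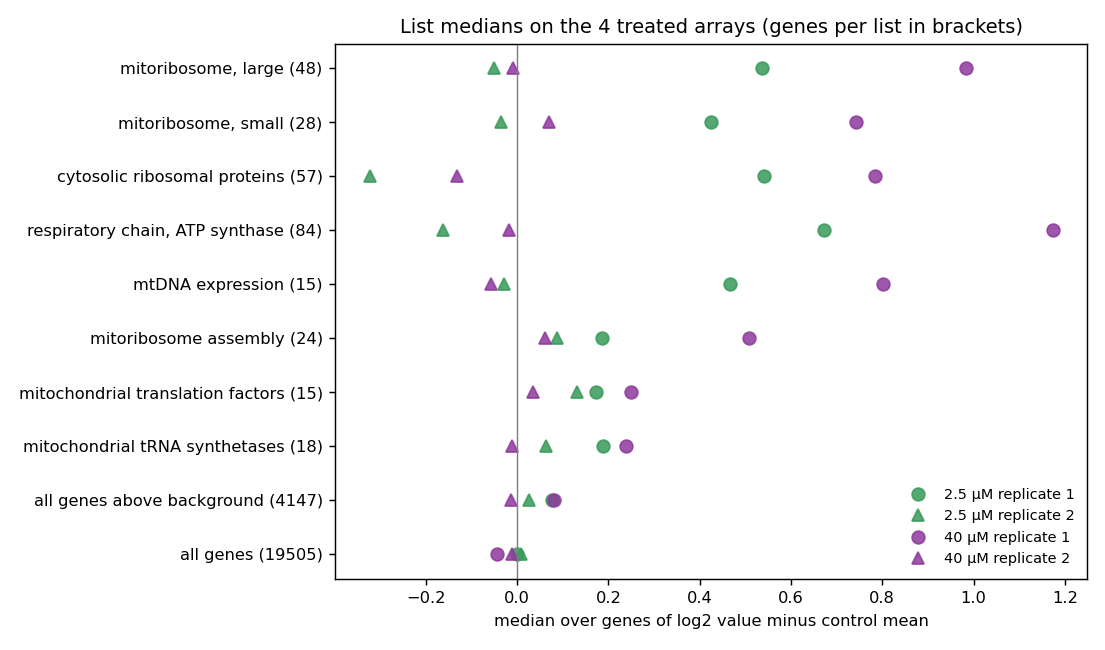
Medians over the genes of each list of the log2 value minus control mean, on the 4 treated arrays (circles replicate 1, triangles replicate 2, green 2.5 µM, purple 40 µM). Lists for the mitoribosome, cytosolic ribosome and respiratory chain are high on the circles and near or below 0 on the triangles, and all genes lie near 0.

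At an unadjusted p below 0.05, the respiratory chain list had 5 genes higher and 0 lower at 40 µM, the cytosolic ribosomal proteins 1 and 1, the assembly factors 4 and 0, the mitochondrial DNA expression list 3 and 0, and the translation factors and synthetases 0 and 0, where 5.18% of all genes were higher and 6.86% lower. Of ribosomal subunits under other symbols, Dap3, a GTP-binding protein of the small subunit, had 11.98 and 11.08 at 40 µM, against 10.74 and 10.82 in control. Gadd45gip1, of the large subunit, had 5.62 and 5.58, against 4.87 and 4.65. Trmt10c, a subunit of the enzyme that cuts mitochondrial tRNAs from their precursors, had 8.95 and 8.59, against 7.70 and 7.78 (difference 1.02 ± 0.26, SE, adjusted p = 0.349, limma). All 3 were higher on each array of the dose than on each control array, but Gadd45gip1 and Trmt10c were under background on every array. The 9 regulators of mitochondrial biogenesis had a median of -0.10, with -0.23 on 40 µM replicate 1 and -0.03 on replicate 2. At an unadjusted p below 0.05, 2 of the 9 genes were lower, beside the same 6.86% of all genes. These were Ppargc1a and Pprc1, and the other regulators had differences between -0.17 and 0.17 for 40 µM minus control. For 2.5 µM minus control the regulators' median was -0.34, with 8 of 9 lower, and -0.35 on replicate 1 and -0.22 on replicate 2. There the arrays did not overlap for 7 of the 9 as lower and 0 as higher, beside 25.9% and 27.1% of all genes. Ppargc1a, the coactivator PGC-1alpha, had 11.56 and 12.01 at 40 µM, against 12.69 and 12.54 in control (difference -0.83 ± 0.22, SE, adjusted p = 0.349, limma), and here replicate 1 was the lower array.

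In the promoter sequences, 67 of the 76 members had an entry. Searching 250 bases before to 50 after the start on both strands, the NRF1 letters were found in 7 members (10.4%), the ETS letters in 25 (37.3%) and the YY1 letters in 12 (17.9%), and 37 (55.2%) held at least 1 of them. Among all genes measured that had an entry, 15691, the shares were 2.71%, 13.2%, 3.64% and 18.1%. That set was not limited to genes above background and was not matched for base content. The shares thus do not show a trait particular to the members. The motifs do not contain one another. A match is a run of letters and not a shown binding site, and its absence says only that these letters are not in this window.

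Of the promoters printed above, Mrpl17 holds the NRF1 letters 11 bases and the ETS letters 237 bases before the start, and Mrpl22 holds them 33 and 53 bases before it. Mrps26 has the ETS letters 14 bases before the start, on the opposite strand, and Mrpl41 has none of the 3. Mrpl17, with both motifs, was thus lower at 40 µM by value, and Mrpl22, with the same pair, higher, while Mrpl41 without any was higher too. Of the 13 members with a promoter that were higher on all 4 treated arrays 9 held a motif, and of the 4 lower ones 2 did. Mrpl46 and Mrps11 start head to head on chromosome 7, with overlapping upstream windows, and are named for that position. Mrpl46, a protein of the central protuberance, had 6.21 and 5.69 at 40 µM, against 5.55 and 5.77 in control, whereas Mrps11 was below both controls on every treated array.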

How the data were processed

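RNA of the 6 samples was labelled as biotinylated cRNA and hybridised to Affymetrix mouse arrays, per the labels' protocols. The deposited values are log2 signals produced by the authors with RMA. The submitters' processing notes list RMA, Affymetrix Expression Console and Transcriptome Analysis Console, with no versions. Genome build, filters and batches were not given in the sources used here. RMA is meant to give the arrays a shared distribution, so shifts in total RNA cannot be read from these values. The gene values still differed in spread, with interquartile ranges of 4.90 on control replicate 1 and 5.43 on 40 µM replicate 1. Values reach beyond 16, the log2 limit of a 16-bit scanner image for a reason the sources used here do not state, and differences are on the deposited scale.

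The table had 28846 features and 22206 transcript clusters, of which 2634 had no gene symbol and were not used. Where a gene had several clusters, it was represented by the one with the highest mean. All 19505 genes were fitted with limma 3.58.1 in R 4.3.3, with group means over all 6 arrays, no covariates and a variance prior that follows the mean level, with two-sided p-values adjusted over all genes by Benjamini-Hochberg and called below 0.05. The fit was run on simulated data with noise drawn independently per gene and array. That simulation held no shift shared by the genes of an array, so it does not cover the split between replicates. Arrays give no read depth, and their number limits the precision. Samples were grouped by title and treatment, although the description fields of most samples name medium or another treatment.

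The members and lists were chosen with earlier results of these data known. Members were named by rule: the smallest p-values per subunit and comparison, the highest control signals, the largest and smallest gaps between the 40 µM arrays, treated arrays all on one side of control, and a list with known roles. Genes of other lists were taken from the 2 with the smallest p in each, and not all of these are named. Alternatives covered scaling, background filter, variance prior, probe set choice, blocks, subunit by structure and leaving out arrays.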

Additional observations from a re-analysis of the deposited data

How the results depend on the processing

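No member passed the adjusted limma test in any comparison under either scaling, the background filter, the mean of probe sets, a prior without trend, only the groups compared, or either block. Without both low arrays, where the error comes from the 2 controls alone, 18 members passed at 40 µM against control (9 higher, 9 lower, beside 19.2% of all genes), 23 at 2.5 µM against control (7 higher, 16 lower, beside 20.5%) and 11 between the doses (8 higher, 3 lower, beside 15.2%). Without 1 array there were 0 to 23 at 40 µM against control, 23 without 40 µM replicate 2 (beside 11.5%), and 0 in both other comparisons.

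The counts at an unadjusted p below 0.05 moved more, and brackets give the percent of all genes past it. For 40 µM against control, 7 members became 2 of 22 among genes above background (10.7%) and 26 without both low arrays (13 higher, 13 lower, 34.6%). Without 1 array there were 2 to 51: 2 without control replicate 2 (3.40%), 3 without control replicate 1 (3.21%) and 51 without 40 µM replicate 2 (30.7%). For 2.5 µM against control, 5 became 8 under quantile normalization (5 higher, 10.2%), 0 among genes above background (6.39%), 17 with the array split as a block (5 higher, 12 lower, 14.3%), 29 without both low arrays (11 higher, 18 lower, 35.8%) and 14 with only the groups compared (18.7%). Without 1 array there were 1 to 15: 1 and 2 without control replicate 1 or 2 (2.37% and 2.52%), 14 and 15 without 40 µM replicate 1 or 2 (18.7% in each). For 40 µM against 2.5 µM, 2 became 0 among genes above background (5.06%), 16 with the array split as a block (13.2%), 23 without both low arrays (15 higher, 8 lower, 32.3%) and 1 with only the groups compared (2.38%). Without 1 array there were 0 to 33: 1 without either control (2.40% and 2.41%), 4 without 2.5 µM replicate 1 (6.82%), 0 without 2.5 µM replicate 2 (4.61%), 6 without 40 µM replicate 1 (13.6%) and 33 without 40 µM replicate 2 (20.9%). The cause was not tested. With the replicate number as a block, which has no basis in the labels (correlations of same-numbered deviations -0.005, -0.01 and 0.39), the counts were 19 at 40 µM (14.8%), 7 at 2.5 µM (10.7%) and 4 between the doses (6.22%).

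Median differences moved under 1 SD of the arrays' medians (0.53 large, 0.39 small), but signs turned. The split widens this SD, so this is no test. At 40 µM against control the split as a block gave -0.01 (large) and 0.16 (small), and omitting both low arrays -0.01 and 0.07. At 2.5 µM against control these gave -0.16 and -0.09, then -0.05 and -0.03. Between the doses, the large subunit gave -0.07 without 2.5 µM replicate 2, and -0.26 (small -0.09) without 40 µM replicate 1. Quantile normalization gave 0.34 and 0.30 at 40 µM (38 of 48 and 21 of 28 genes higher) and 0.13 and 0.08 at 2.5 µM (34 and 16 higher), each against control. Centring gave 0.34 and 0.31, or 0.47 and 0.44 relative to all genes' median (-0.13), as without centring. Of 1983 alternative values of named genes, 186 changed sign, 181 of them with no call in either setting. The other 5 were called in the new direction without both low arrays: for 40 µM against control Mrpl34 (-0.87), Mrpl58 (-0.51) and Mrps12 (-0.51), for 2.5 µM against control Mrps33 (-0.63), and between the doses Mrpl24 (-0.50). A further 46 gained a call in the same direction. Few arrays and weak signal limit this.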
